A study of Mus musculus with 9 samples.

Results

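The chromatin regulators Kmt2d, Kmt2c, Crebbp, Ep300, Ezh2, Arid1a, Smarca4, Hdac3 and Kdm6a were examined in mouse B-cell lymphomas. These 9 genes were taken by symbol from the 41128 genes of the count table, because their human counterparts are mutated or misused in lymphomas of germinal center origin. Each symbol matched 1 gene, and all 9 were among the 14057 genes with enough counts to be tested. RNA was sequenced from 3 Bcl6 tumors (IµBcl6 transgene, Smc3 wt/wt) and 6 Smc3/Bcl6 tumors (the same transgene, Smc3 wt/-), with 1 library per tumor. IµBcl6 is a knock-in at the immunoglobulin heavy chain locus that keeps Bcl6 expressed in B cells. By the study's methods, mice of both genotypes also carried Cγ1-Cre, which acts in B cells that have entered the germinal center, so the loss of 1 Smc3 allele is limited to those cells and their descendants. The labels give a lymph node as the tissue, named as mesenteric for replicate 1 of each genotype only, and give no age or sex. The study's text describes the sequenced lymphoma cells of both genotypes as taken from mesenteric nodes. The samples were not sorted, as far as the labels say, and the numbers of cells of a type and the RNA per cell cannot be told apart in such libraries.

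Enzymes of this group write, erase or move the marks that decide whether enhancers and promoters are active. Kmt2d and Kmt2c are large methyltransferases that place monomethylation on histone H3 lysine 4 at enhancers, and Kdm6a, which travels in the same complexes, removes the repressive methylation of lysine 27. Crebbp and Ep300 acetylate histones at enhancers, whereas Hdac3, the deacetylase of the NCoR and SMRT corepressors that Bcl6 recruits, takes that acetylation away. Ezh2 is the catalytic subunit of Polycomb repressive complex 2 and methylates lysine 27, and germinal center B cells are known for high Ezh2. Arid1a and Smarca4 are a DNA-binding subunit and an ATPase of the BAF complex, which slides and evicts nucleosomes. In human follicular lymphoma and diffuse large B-cell lymphoma, KMT2D, CREBBP, EP300 and ARID1A are recurrently hit by loss-of-function mutations and EZH2 by activating ones.

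Total counts ran from 10156728 to 17774577 per tumor. Smc3, the gene targeted in this model, had 126, 99.5 and 88.1 CPM in the Bcl6 tumors and 27.9 CPM at the lowest, 106 at the median and 111 at the highest in the Smc3/Bcl6 tumors (CPM, read counts scaled to a common library size by TMM, used throughout). Its lowest value belonged to Smc3/Bcl6 tumor 2, and the counts cover the whole gene rather than the deleted exon. That library stood apart from the others in long genes, and the genotype differences of the 9 members are therefore given with and without it. B-cell markers were detected in every tumor, with summed levels of 2805 to 8820 CPM in Bcl6 and 4782 to 10602 CPM in Smc3/Bcl6 tumors. T-cell markers summed to 291 to 2450 CPM and 83.5 to 2249 CPM, and macrophage markers to 437 to 7841 CPM and 269 to 8354 CPM, so these levels differed widely within each genotype. The 7 germinal center markers summed to 127 to 135 CPM in Bcl6 and 54.6 to 212 CPM in Smc3/Bcl6 tumors. A gene was called at an unadjusted edgeR p below 0.1 with an absolute log2 fold change above 0.56. Mybl1 was called lower with 9 tumors (0.868% of all genes were). Fas was called lower without Smc3/Bcl6 tumor 2 (1.39% were). Plasma cell markers summed to 1722 to 2114 CPM and 884 to 5559 CPM, and 0 of 7 were called. Of 7 erythroid markers 2 were called higher in Smc3/Bcl6 tumors (sums of 44.7 to 1475 CPM in Bcl6 and 122 to 12922 CPM in Smc3/Bcl6). With 9 tumors, 1.28% of all genes were called higher. Of 6 neutrophil markers 2 were called lower (17.7 to 1643 CPM and 8.69 to 666 CPM), against 0.868% of all genes with 9 tumors. Elane was at 0 in Smc3/Bcl6 tumor 5. Under the replicate block 0 germinal center, erythroid or neutrophil markers were called. Median log2 fold changes were 0.26 for erythroid and -0.32 for neutrophil markers in place of 2.12 and -1.42. Of the 6 neutrophil markers, 5 were tested under the block. The block drops Smc3/Bcl6 tumors 4 to 6. Erythroid markers summed to 12922 CPM in tumor 4 and 4281 CPM in tumor 6, and to 4663 CPM in tumor 2, which stays. The block called 2 of 8 T-cell and 3 of 8 macrophage markers lower, where 254 of 13360 genes were. With 9 tumors and no block, 0 of either were called. The part of these markers in the values below was not tested.

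None of the 9 genes differed between the genotypes by the thresholds of the study, an unadjusted p below 0.1 with an absolute log2 fold change above 0.56. With all 9 tumors, 0 members were called higher, where 1.28% of the genes tested were (180 genes), and 0 lower, where 0.868% were (122 genes), 2.15% in all. Without Smc3/Bcl6 tumor 2, 0 members were called again, against 2.43% of 13942 genes higher and 1.39% lower, 3.82% in all. Blocking on the replicate number (tumors 1 to 3 of each genotype) turned the split over all genes to 45 higher and 254 lower, with 0 members called. By DESeq2 it was 342 and 101, by limma with quality weights 642 and 1002, and with the tissue label as a covariate 130 and 192. By edgeR, 0 members and 0 genes in all (0.0%) had an adjusted p below 0.05 in either set of tumors, as by DESeq2 and limma. An unadjusted p below 0.05 was reached by 0 members, against 0.562% of genes with 9 tumors (79 genes) and 1.82% with 8 (254 genes). By DESeq2 such genes numbered 209 and 431, and by limma 1171 and 1234, with 0 members among them. The genotypes overlapped for all 9 members. Over all genes, 0.285% were higher and 0.199% lower with no overlap (0.484% together) with 9 tumors, and 0.689% higher and 0.689% lower (1.38% together) with 8.

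The median log2 fold change of the members (Smc3/Bcl6 over Bcl6) was -0.14 with 2 of 9 positive, against a median of 0.06 over all genes. Without Smc3/Bcl6 tumor 2 it was 0.08 with 6 of 9 positive, against 0.03 over all genes. Blocking on replicate number, with tumors 1 to 3 of each genotype only, gave -0.79 with 1 of 9 positive, against -0.08 over all genes. Leaving Smc3/Bcl6 tumor 2 out of the block also took out Bcl6 tumor 2, and gave 0.0087 with 5 of 9 positive. With a length and GC offset beside the block these medians were -0.43 and -0.0059. By limma with quality weights, which gave Smc3/Bcl6 tumor 2 little weight, the median was 0.034 with 5 of 9 positive. Without the block, the sign of the group's median in edgeR thus turned on Smc3/Bcl6 tumor 2. With the block, the change cannot be assigned to that library, because Bcl6 tumor 2 left with it.

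With the block and tumor 2 included, Kmt2c was at -1.03 (SE 0.72), Kdm6a at -1.02 (SE 0.64) and Arid1a at -1.01 (SE 0.85) on the log2 scale. Kmt2d was at -0.93 (SE 0.99), Ep300 at -0.79 (SE 0.65), Crebbp at -0.71 (SE 0.64) and Smarca4 at -0.55 (SE 0.46). Ezh2 was at -0.093 (SE 0.34) and Hdac3 at 0.44 (SE 0.39). None of these was called, and the smallest unadjusted p of edgeR's test was 0.159, for Kdm6a.

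**Figure D1:**
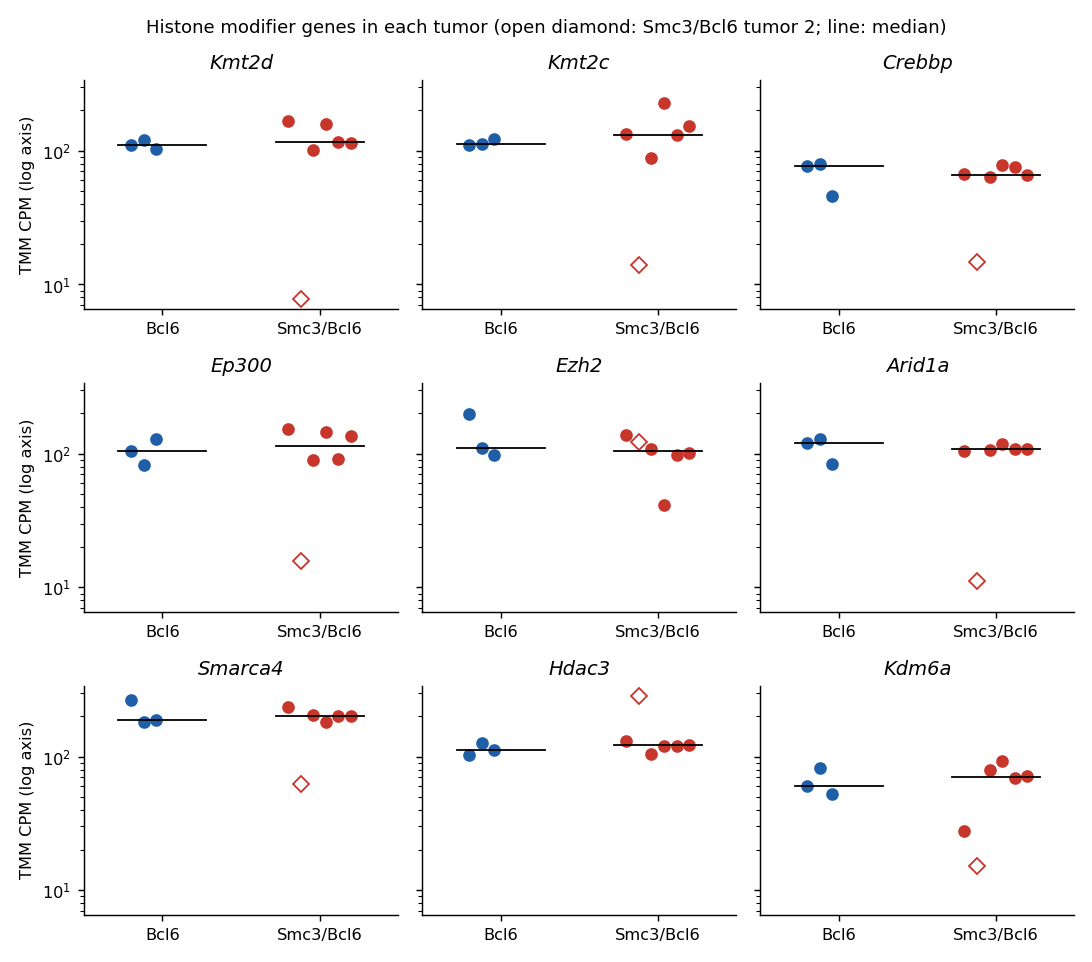
TMM-scaled CPM (log axis) of the 9 genes in the 3 Bcl6 tumors (blue) and 6 Smc3/Bcl6 tumors (red), with the median of each genotype as a line and Smc3/Bcl6 tumor 2 as an open diamond. Tumor 2 is the lowest of all 9 tumors for 7 genes, within the range of the others for Ezh2 and the highest for Hdac3 (284 CPM).

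Kmt2d (ENSMUSG00000048154) lies on chromosome 15 of GRCm38 from 98831669 to 98871204 on the minus strand. It had 111, 121 and 103 CPM in Bcl6 tumors 1 to 3. In Smc3/Bcl6 tumors it had 7.83 CPM at the lowest, 115 at the median and 167 at the highest. The lowest value, from tumor 2, rested on 74 counts (95% exact Poisson interval 6.15 to 9.83 CPM, counting error only), while the other 5 Smc3/Bcl6 tumors had 102 to 167 CPM and covered the Bcl6 values. Between genotypes its log2 fold change was -0.0058 (standard error, SE, 0.65, edgeR adjusted p = 1), and 0.25 (SE 0.19, edgeR adjusted p = 0.985) without tumor 2. A span of 2 SE either side ran from -0.13 to 0.63 in the second fit and from -1.31 to 1.29 in the first.

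Kmt2c (ENSMUSG00000038056, chromosome 5 from 25271798 to 25498783) encodes the paralog that shares most of its enhancer sites with Kmt2d. It had 110, 112 and 122 CPM in the Bcl6 tumors, a narrow range. The Smc3/Bcl6 tumors were wider, from 14.1 CPM in tumor 2 through a median of 132 to 228 CPM in tumor 4. Without tumor 2, the SD of log2 CPM was 0.50 among Smc3/Bcl6 tumors and 0.079 among Bcl6 tumors, and the genotypes differed by 0.36 on the log2 scale (SE 0.28, edgeR adjusted p = 0.985), against 0.11 (SE 0.60) with it. Of the Kmt2c exons, 274 bases are shared with Gm42585, annotated on the opposite strand, and reads there may have been assigned to neither gene or to the wrong one.

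Kdm6a (ENSMUSG00000037369, chromosome X from 18162575 to 18279936) had 60.4, 82.7 and 52.4 CPM in the Bcl6 tumors. In Smc3/Bcl6 tumors the lowest was 15.2 CPM, the median 70.7 and the highest 92.4. Besides tumor 2, Smc3/Bcl6 tumor 1 was low at 27.8 CPM, below the range of 52.4 to 92.4 CPM in the remaining 7 tumors. Its log2 fold change was -0.14 (SE 0.50) with all tumors and 0.08 (SE 0.35) without tumor 2. Kdm6a escapes X inactivation, so its dose differs between the sexes, and its Y-linked partner Uty can be read only in males. Xist, which is transcribed from the inactive X, had counts in all 9 tumors (3.39 to 110 CPM), and so had Uty (2.96 to 86.9 CPM). No sex was therefore assigned, and its part in the Kdm6a values was not tested. Smc3/Bcl6 tumor 1 had 26.4 CPM of Xist and 20.4 CPM of Uty. Under the replicate block, where Kdm6a was at -1.02 (SE 0.64), 4 of 5 sex genes were called lower. These were the Y-linked Uty, Ddx3y, Kdm5d and Eif2s3y, where 254 of 13360 genes were called lower. Without the block 0 of the 5 were called, with 9 tumors or 8. The part of sex in the block values was not tested.

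The acetyltransferase Crebbp (ENSMUSG00000022521, chromosome 16 from 4081328 to 4213997) had 77.1, 80.1 and 46.2 CPM in the Bcl6 tumors. Smc3/Bcl6 tumors had 14.6 CPM at the lowest, 66.3 at the median and 77.7 at the highest. With tumor 2 left out, the other 5 kept between 63.3 and 77.7 CPM and lay inside the Bcl6 range. Their difference on the log2 scale was -0.16 (SE 0.44) with 9 tumors and 0.06 (SE 0.19) with 8.

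Ep300 (ENSMUSG00000055024, chromosome 15 from 81585351 to 81652077), its close paralog, had 104, 82.3 and 129 CPM in the Bcl6 tumors. The Smc3/Bcl6 tumors ran from 15.7 through a median of 113 to 153 CPM, with 89.9 CPM as the lowest once tumor 2 was left out. For Ep300 the log2 fold change was -0.00052 (SE 0.55) with 9 tumors and 0.23 (SE 0.25) with 8. The log2 ratio of Crebbp to Ep300 per exon length, which sets these enzymes against each other within a tumor, was -0.58 ± 0.75 (SD, n = 3) in Bcl6 and -0.71 ± 0.39 (SD, n = 5) in the other genotype without tumor 2 (exact two-sided permutation test, p = 0.75, and 0.982 after adjustment over the 4 ratios computed, which were chosen after the values were seen). With tumor 2 the second mean was -0.59 ± 0.44 (SD, n = 6, exact permutation p = 0.94).

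Hdac3 (ENSMUSG00000024454, chromosome 18 from 37935844 to 37955016) encodes the enzyme that opposes Crebbp at Bcl6 target enhancers. Hdac3 varied least of the group over the 8 tumors other than Smc3/Bcl6 tumor 2, though not within either genotype alone. It had 103, 126 and 112 CPM in Bcl6 tumors. The Smc3/Bcl6 tumors other than tumor 2 had 105 to 130 CPM, whereas tumor 2 had 284 CPM, the highest of all 9. Leaving tumor 2 out took the log2 fold change from 0.37 (SE 0.34) to 0.08 (SE 0.13). Over the 8 remaining tumors the SD of log2 CPM was 0.12, and 1.37% of the genes tested had a smaller one. The log2 ratio of Crebbp to Hdac3 per exon length was -2.52 ± 0.44 (SD, n = 3) in Bcl6 and -2.52 ± 0.14 (SD, n = 5) in Smc3/Bcl6 tumors without tumor 2 (exact permutation p = 0.982), and -3.10 ± 1.44 (SD, n = 6) with it (exact permutation p = 0.702).

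Ezh2 (ENSMUSG00000029687, chromosome 6 from 47530139 to 47595341) had the most negative fold change of the 9 in both fits. It had 197, 110 and 97.2 CPM in the Bcl6 tumors. In the Smc3/Bcl6 tumors it had 41.1 CPM at the lowest, 105 at the median and 138 at the highest. The extremes were Bcl6 tumor 1 at the top and Smc3/Bcl6 tumor 4 at the bottom, and the other 7 tumors lay between 97.2 and 138 CPM regardless of genotype. The log2 fold change was -0.40 (SE 0.37) with 9 tumors and -0.44 (SE 0.37) without tumor 2, neither past the thresholds (edgeR adjusted p = 1 and 0.985). With 1 tumor left out at a time the first of these ran from -0.59 without Bcl6 tumor 3 to -0.086 without Bcl6 tumor 1, and it was -0.24 without Smc3/Bcl6 tumor 4. Of the Ezh2 exons, 174 bases are shared with Gm26625, a noncoding gene annotated on the opposite strand.

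Ezh2 is a target of the E2F factors and rises in dividing cells. The summed level of 12 cell cycle genes (Mki67, Top2a, Pcna, Mcm2 to Mcm7, Ccnb1, Cdk1 and Birc5) was highest in Bcl6 tumor 1, with 3580 CPM, and lowest in Smc3/Bcl6 tumor 4, with 1123 CPM, the tumors that were also highest and lowest for Ezh2. Across the 9 tumors the log2 levels correlated at r = 0.928 (exact permutation p = 0.00109) with a Spearman rho of 0.867 (exact permutation p = 0.00451). Without the 2 tumors farthest from the median, again Bcl6 tumor 1 and Smc3/Bcl6 tumor 4, r was 0.618 (exact permutation p = 0.148) and rho 0.714 (exact permutation p = 0.0881). Leaving out both ends also narrows the range, so this set cannot tell whether the relation rests on these tumors. Among the 7 tumors labelled as lymph node without further detail, r was 0.901 (exact permutation p = 0.00575) and rho 0.75 (exact permutation p = 0.0663). That set leaves out Bcl6 tumor 1 and keeps Smc3/Bcl6 tumor 4. The mesenteric label held 2 tumors, too few for a value. This was the only relation of this kind computed, and it was chosen after the values were seen. Of the 12 genes, 1 passed the thresholds as lower in Smc3/Bcl6 tumors with 9 tumors, Top2a, against 0.868% of all genes, and 3 passed without tumor 2, Top2a, Mcm5 and Birc5, against 1.39%. Under the replicate block 2 passed as lower, Top2a and Mki67, and 6 of the 12 fold changes were positive.

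**Figure D2:**
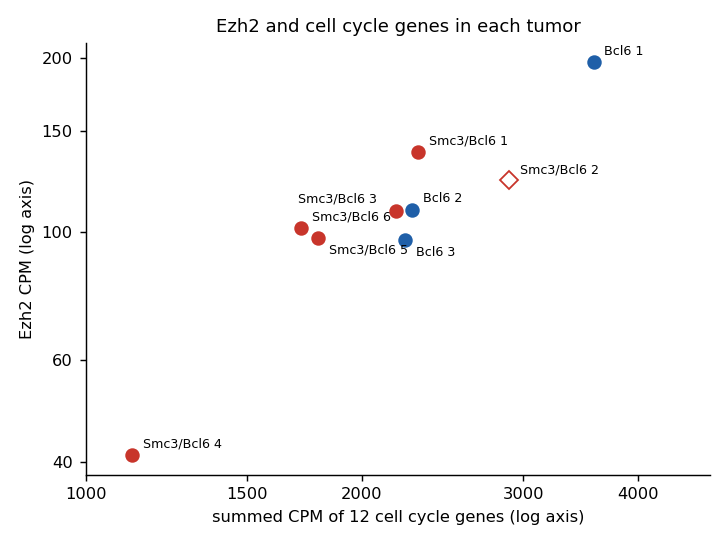
Ezh2 CPM against the summed CPM of 12 cell cycle genes (both log axes), 1 point per tumor, with Bcl6 in blue, Smc3/Bcl6 in red and Smc3/Bcl6 tumor 2 as an open diamond. Bcl6 tumor 1 (3580 and 197 CPM) and Smc3/Bcl6 tumor 4 (1123 and 41.1 CPM) are the ends of the spread, and the other 7 tumors form 1 group between them.

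The BAF subunit Arid1a (ENSMUSG00000007880, chromosome 4 from 133679008 to 133756769) had 120, 129 and 83.4 CPM in the Bcl6 tumors. The Smc3/Bcl6 tumors had 11.1 CPM at the lowest, 108 at the median and 118 at the highest. Apart from tumor 2 they were nearly level, from 105 to 118 CPM, with an SD of log2 CPM of 0.065 (n = 5) against 0.34 (n = 3) in Bcl6 tumors. Its log2 fold change went from -0.25 (SE 0.55) to -0.00077 (SE 0.15) once tumor 2 was left out.

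Smarca4 (ENSMUSG00000032187, chromosome 9 from 21616169 to 21704230), the ATPase Brg1, had 266, 181 and 189 CPM in Bcl6 tumors. Its lowest, median and highest values in Smc3/Bcl6 tumors were 62.2, 201 and 236 CPM. The 5 tumors other than tumor 2 lay from 183 to 236 CPM, within the Bcl6 range. The log2 fold change was -0.23 (SE 0.37) with 9 tumors and -0.03 (SE 0.16) with 8.

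**Figure D3:**
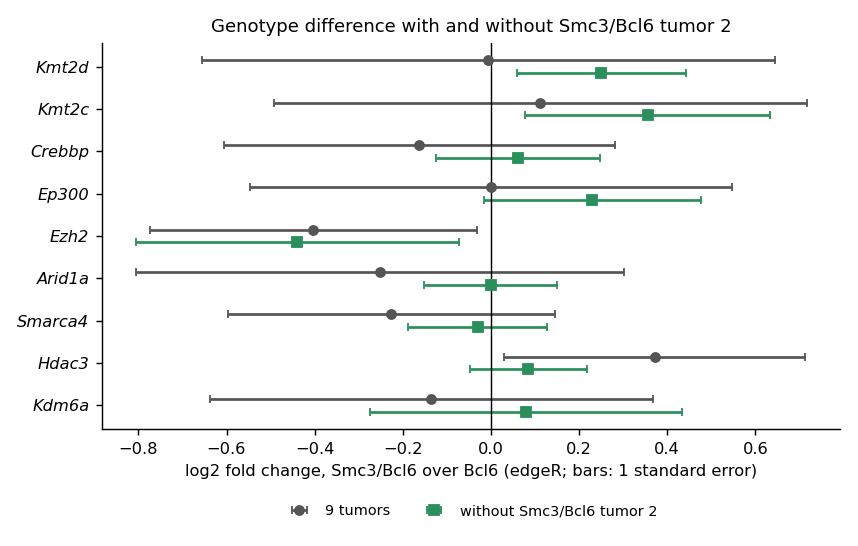
Log2 fold change of each gene, Smc3/Bcl6 over Bcl6, from edgeR with 9 tumors (grey circles) and without Smc3/Bcl6 tumor 2 (green squares), with bars of 1 standard error. Kmt2d moves from -0.0058 to 0.25 and Hdac3 from 0.37 to 0.08 when that tumor is left out. The bars shorten for every gene, though hardly for Ezh2 (SE 0.37 in both fits).

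The 9 genes have longer exons than most. Their median exon length, counted as the union of annotated exons, was 11476 bases against 4091 bases over the genes tested. Of the 9, 6 (Kmt2d, Kmt2c, Ep300, Crebbp, Arid1a and Kdm6a) were among the longest 20.0% of genes, those of 7205 bases or more. Kmt2c with 20291 bases and Kmt2d with 19931 bases were longer than 99.4% and 99.3% of the genes tested, and Hdac3 with 4054 bases was the shortest member.

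Smc3/Bcl6 tumor 2 was compared with the mean log2 CPM of the other 8 tumors. Kmt2d was lower there by a log2 difference of -3.94, or 15.4-fold, the largest fall among the 9 genes. Arid1a followed at -3.28, Kmt2c at -3.19 and Ep300 at -2.84. Crebbp had -2.21, Kdm6a -2.05 and Smarca4 -1.72, whereas Ezh2 had 0.25 and Hdac3 1.28. Tumor 2 was the lowest of the 9 tumors for 7 of the 9 members, as it was for 30.9% of all genes tested, and it was the highest for 29.0%. The scaling matters to these differences. With library size alone in place of TMM, Ezh2 was at -0.34 and Hdac3 at 0.68, since the TMM factor of tumor 2 was 0.693 against 0.964 to 1.10 in the others.

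Gene length went with this difference across the whole table. The median deviation of tumor 2 was 1.05 among the shortest 20.0% of genes and -1.16 among the longest 20.0% (Spearman correlation -0.466 across 13975 genes, which share the library and are not independent). A smooth curve of the deviation on exon length placed a gene as long as Kmt2d at -1.88, which left a difference of -2.06 on the log2 scale between Kmt2d and the curve. What remained was -1.98 for Arid1a, -1.30 for Ep300, -1.29 for Kmt2c, -1.14 for Kdm6a, -1.11 for Smarca4 and -0.73 for Crebbp. Hdac3 lay above the curve by 1.35 and Ezh2 by 0.90. Members of like length could lie far apart. Smarca4 and Ezh2 differ little in length, with 6475 and 6678 bases, but deviated by -1.72 and 0.25. The quality weight that limma gave this library, 0.125, was the lowest of the 9. No cause of its profile was tested.

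**Figure D4:**
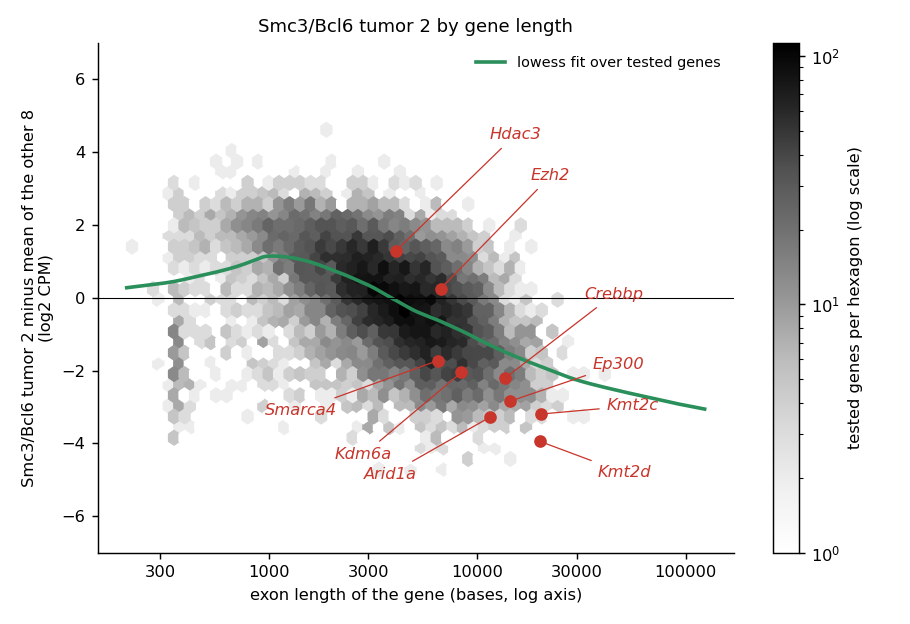
Deviation of Smc3/Bcl6 tumor 2 from the mean of the other 8 tumors (log2 CPM) against exon length (log axis) for the genes tested (grey, shaded by number), with the lowess fit in green and the 9 members in red. Genes under 200 bases are not drawn. Hdac3 and Ezh2 lie above the curve and the other 7 members below it, with Kmt2d the lowest of them at -3.94.

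Levels of different genes were set against each other per kilobase of exon. Over the 8 tumors other than Smc3/Bcl6 tumor 2, the median was 31.1 CPM per kb for Smarca4 and 29.8 for Hdac3. Ezh2 followed with 15.8, Arid1a with 9.50, Kdm6a with 8.44 and Ep300 with 8.17. Kmt2c had 6.22, Kmt2d 5.78 and Crebbp 5.24 CPM per kb. Neighbors in this order overlapped for every pair. Smarca4 was above Hdac3 in 6 of 8 tumors, Kdm6a above Ep300 in 4 of 8 and Kmt2c above Kmt2d in 4 of 8, so that those ranks are not separated, whereas Hdac3 was above Ezh2 and Ezh2 above Arid1a in 7 of 8. The log2 ratio of Kmt2d to Kmt2c was -0.018 ± 0.18 (SD, n = 3) in Bcl6 and -0.083 ± 0.38 (SD, n = 5) in Smc3/Bcl6 tumors without tumor 2 (exact permutation p = 0.804), and -0.21 ± 0.45 (SD, n = 6) with it (exact permutation p = 0.536). Even the lowest of them, Crebbp, was above 50.1% of the genes tested on this scale.

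**Figure D5:**
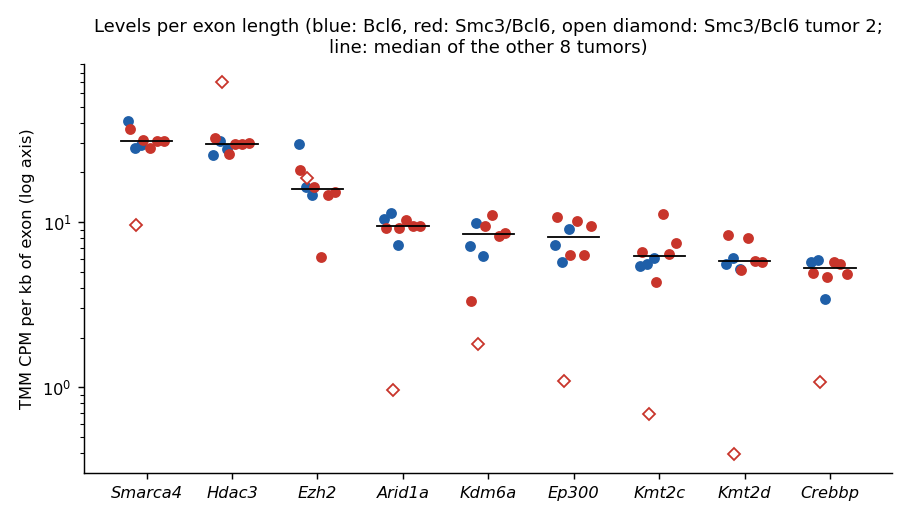
TMM-scaled CPM per kb of exon (log axis) for each gene and tumor, ordered by the median of the 8 tumors other than Smc3/Bcl6 tumor 2 (line), with Bcl6 in blue, Smc3/Bcl6 in red and tumor 2 as an open diamond. Smarca4 (31.1) and Hdac3 (29.8) stand at the top, and Kmt2d (5.78) and Crebbp (5.24) at the bottom.

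The partners of these enzymes were described by the same test, with 66 further genes in 5 lists, all of which were tested. With 9 tumors, 0 of the 66 passed the thresholds. Without Smc3/Bcl6 tumor 2, 1 passed, the acetyltransferase Kat6b, against 3.82% of all genes. Kat6b had 12.1, 12.4 and 14.1 CPM in the Bcl6 tumors and 11.6 to 38.7 CPM in the 5 Smc3/Bcl6 tumors, which overlapped them (0.75 on the log2 scale, SE 0.37, edgeR adjusted p = 0.985). Kat6b was not called with the tissue label as a covariate, nor with the replicate number as a block, under which 0 of the 66 genes passed. Higher calls in the lists also went to 0 when Bcl6 tumor 3, Smc3/Bcl6 tumor 4 or Smc3/Bcl6 tumor 6 was left out besides.

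Of the 17 genes of COMPASS and related demethylases, which include the H3K4 methyltransferase Kmt2a and the scaffold Wdr5, 0 passed in either fit, and the median log2 fold change was -0.17 with 9 tumors and -0.08 with 8. Kdm6b, the other H3K27 demethylase, had the smallest p with 9 tumors (log2 fold change -0.57, SE 0.42, and -0.42, SE 0.35, without tumor 2) and was low in all of them, at 2.86 to 10.3 CPM. Paxip1, a subunit of the Kmt2c and Kmt2d complexes, had -0.39 (SE 0.33), and -0.24 (SE 0.22) without tumor 2. Without tumor 2, Kmt2a had 0.32 (SE 0.19) and Wdr5 -0.26 (SE 0.16).

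Polycomb repressive complex 2, the complex of Ezh2, was represented by 10 genes, with 0 passing in both fits and medians of -0.19 and -0.16. Ezh1, the catalytic paralog found in resting cells, had 95.6, 97.8 and 119 CPM in Bcl6 tumors and 102 to 168 CPM in the 5 Smc3/Bcl6 tumors other than tumor 2, which differed by 0.41 on the log2 scale (SE 0.21). The accessory subunit Mtf2 had -0.45 (SE 0.27) with 9 tumors and -0.32 (SE 0.17) with 8, and the core subunit Suz12 had -0.35 (SE 0.38) with 9 and -0.16 (SE 0.21) with 8.

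Of the 8 other acetyltransferases, medians were 0.02 and 0.06. Kat5 and Kat8, the catalytic subunits of the TIP60 and MOF complexes, had 0.25 (SE 0.27) and 0.23 (SE 0.30) with 9 tumors, and 0.079 (SE 0.15) and 0.038 (SE 0.16) with 8. Hat1, which acetylates newly made histone H4, had 168, 139 and 111 CPM in Bcl6 tumors and 71.1 to 135 CPM in the 5 Smc3/Bcl6 tumors (log2 fold change -0.55, SE 0.22, without tumor 2), just short of the size threshold, and 256 CPM in tumor 2.

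The 19 BAF and PBAF genes had medians of -0.07 and 0.01, with 0 passing in either fit. Ss18 (-0.31, SE 0.22) and Dpf2 (0.24, SE 0.21) had the smallest p with 9 tumors. Arid1b, the paralog that stands in for Arid1a in the complex, had 59.4, 45.0 and 50.6 CPM in Bcl6 tumors and 59.9 to 94.9 CPM in the 5 Smc3/Bcl6 tumors. Those ranges did not overlap, which was also so for 1.38% of all genes without Smc3/Bcl6 tumor 2 (0.689% higher and 0.689% lower). The difference of 0.50 on the log2 scale (SE 0.18, edgeR adjusted p = 0.985) was under the size threshold. Tumor 2 had 9.42 CPM, and with it the genotypes overlapped. Actl6a, an actin-like subunit tied to dividing progenitors, had -0.34 (SE 0.19) without tumor 2.

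The 12 corepressor and class I deacetylase genes, among them Ncor1 and Bcl6, had medians of -0.13 and -0.08 and 0 passing in either fit. Reads of Bcl6, which do not separate the transgene from the endogenous gene, gave 647, 286 and 175 CPM in Bcl6 tumors and 155 CPM at the lowest, 315 at the median and 659 at the highest in Smc3/Bcl6 tumors, and differed by -0.08 on the log2 scale (SE 0.53), or 0.11 (SE 0.49) without tumor 2. Ncor1, the corepressor scaffold that activates Hdac3, had 178, 198 and 117 CPM and 145 to 180 CPM in Smc3/Bcl6 tumors without tumor 2, where its fold change was -0.02 (SE 0.18). Sin3a (-0.35, SE 0.36) and Rcor1 (-0.20, SE 0.27) had the smallest p with 9 tumors, and went to -0.16 (SE 0.16) and -0.17 (SE 0.24) with 8. Hdac2 (-0.20, SE 0.17) was among the smallest with 8.

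Among the genes whose profile over the 9 tumors was nearest to Kmt2d were Gm26860 and Fam208a, by a root mean square difference of 0.24 and 0.25 between log2 CPM values centered on each gene, against a median of 1.399 over 14056 genes. Both shared the low value in tumor 2, with deviations of -3.52 and -3.60. They differ in length, with 1489 exon bases for Gm26860 and 13627 for Fam208a. Of the members, Arid1a was nearest to Kmt2d at 0.32 and Kmt2c next at 0.35, and Hdac3 was the farthest at 1.65. Without tumor 2 the order changed, and Hdac3 became the nearest member, at 0.19, with Ezh2 the farthest at 0.73.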

How the data were processed

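RNA-seq libraries of 9 lymphomas were analyzed. The authors aligned reads with STAR to mm10 and GENCODE transcripts in the nf-core pipeline, used featureCounts to assign them to genes and deposited raw counts without normalization. The submitters' notes also name DESeq2 1.28.1. The table held 0 columns without a sample. Groups and replicate numbers came from the sample labels, which do not state that tumors came from separate mice, so p-values cover the spread between these samples.

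Counts were fitted with edgeR 4.0.16 in R 4.3.3 (TMM, its filter on low counts, quasi-likelihood test, Benjamini-Hochberg adjustment over all genes tested). Standard errors were taken as the log2 fold change over the square root of F. Log2 CPM used a prior count of 2. Exon lengths and positions came from GENCODE M21 (GRCm38), which held 97.9% of the gene identifiers, and the counting's strand setting is not given in the sources used here. Length curves used lowess with a span of 0.3, and single values were compared by exact permutation. The scripts were tested on simulated data.

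The members and the gene lists were chosen with earlier results of these data known. Named genes are the members, Smc3, Bcl6, in each list the called genes and otherwise the 2 with the smallest p, and the 3 genes nearest to Kmt2d, 1 of which is not reported here. Ncor1, Top2a, Mki67, Mcm5, Birc5, Mybl1, Fas, Xist, Uty, Ddx3y, Kdm5d and Eif2s3y lie outside this rule and were added after their values were seen. Alternatives comprised DESeq2 1.42.0, limma 3.58.1 with quality weights, other scaling and filters, the tissue label, a length and GC offset, a replicate block and each tumor left out. Replicates 1 to 3 occur in both genotypes, and the block treated same-numbered tumors as pairs. Across genes their deviations from the genotype means correlated at 0.443, 0.113 and 0.155. The labels name no pairs, and no correlation of differently numbered tumors was set beside these values, so they do not establish a pairing. The tumors numbered 1 share the mesenteric label. Without Smc3/Bcl6 tumor 2 the block also lost Bcl6 tumor 2.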

Additional observations from a re-analysis of the deposited data

Results flagged for a closer look

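Among the 6 Smc3/Bcl6 tumors, the 9 genes were each examined for an extreme tumor. The measure was the distance from the extreme tumor to the next one as a share of the whole range of log2 CPM, with 0.625 as the critical value. Chance alone passes about 1 in 20 groups, but here 19.4% of the 14057 genes tested passed, 17.2% through tumor 2, which is low in long genes as a whole. Of the members, 8 of 9 passed, 7 of them through tumor 2. These 7 rest on the same library and are not separate observations. Of the 6 members among the longest genes, Kdm6a did not pass (0.332), while the shorter Smarca4 and Hdac3 did. Tumor 2 was the lowest for Arid1a (0.951), Crebbp (0.877), Kmt2d (0.838), Smarca4 (0.808), Ep300 (0.766) and Kmt2c (0.656), and the highest for Hdac3 (0.783). Smc3/Bcl6 tumor 4 was the lowest for Ezh2 (0.716), and it also had the lowest summed level of cell cycle genes, 1123 CPM.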

How the results depend on the processing

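Members called stayed at 0 of 9 under every alternative and every tumor left out. The block with offset and library size only were chosen after seeing the data. The cause of the changes was not tested, and the replicate block changed no call among the members. Of the fold changes with 9 tumors, Kmt2d was 0.0119 with DESeq2, 0.0120 with RLE scaling, 0.034 with limma quality weights and 0.027 with the tissue label. Ep300 was 0.0111, 0.0113, 0.27 and 0.032 in that order and 0.0062 without the filter, and Smarca4 was 0.050 with limma. With the replicate block, which pairs same-numbered tumors and drops Smc3/Bcl6 tumors 4 to 6, Kmt2c was -1.03, and with a length and GC offset beside the block Kmt2c was -0.44 and Ezh2 0.19. Without Smc3/Bcl6 tumor 2, Arid1a was 0.0011 with DESeq2, 0.0023 with RLE, 0.023 without the filter and 0.071 with the block. Crebbp was -0.085 with the offset, Smarca4 0.070 with limma and 0.025 with the tissue label, and Kmt2c -0.11 with the block and -0.089 with the block and offset. Kdm6a was -0.094 with limma, -0.14 with the tissue label, -0.27 with the block and -0.21 with the block and offset.

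Leaving out 1 tumor at a time gave -0.16 to 0.25 for Kmt2d, -0.16 to 0.36 for Kmt2c, -0.38 to 0.062 for Crebbp, -0.18 to 0.23 for Ep300, -0.59 to -0.086 for Ezh2 and -0.30 to 0.080 for Kdm6a. From the 8 tumors it gave -0.15 to 0.15 for Arid1a, -0.13 to 0.22 for Crebbp, -0.051 to 0.32 for Kdm6a and -0.11 to 0.16 for Smarca4.

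Genes called higher numbered 342 with DESeq2, 576 without the filter, 642 with limma, 45 with the replicate block, 61 with block and offset and 108 with library size only, and 84 (without Bcl6 tumor 2) to 339 (without Smc3/Bcl6 tumor 2) with 1 tumor left out, 303 without Smc3/Bcl6 tumor 3 and 98 without Smc3/Bcl6 tumor 6. Genes called lower numbered 812 without the filter, 1002 with limma, 192 with the tissue label, 254 with the block, 248 with block and offset, and 61 (without Smc3/Bcl6 tumor 6) to 321 (without Smc3/Bcl6 tumor 3) with 1 tumor left out, 240 without Bcl6 tumor 1 and 194 without Smc3/Bcl6 tumor 2. From 8 tumors, higher calls were 782 without the filter, 638 with limma, 54 with the block and 54 with block and offset, and 187 (without Smc3/Bcl6 tumor 6) to 641 (without Smc3/Bcl6 tumor 3) with 1 more left out, and 222 without Bcl6 tumor 2. Lower calls from 8 tumors were 804 without the filter, 852 with limma, and 107 to 497 without the same tumors 6 and 3, and 329 without Smc3/Bcl6 tumor 1. Among the 66 related genes, limma called 2 lower with 9 tumors. With 8 tumors, limma called 2 higher and 2 lower, library size alone 1 lower, and the tissue label, the block and the block with offset 0 higher. With 1 tumor left out the related genes had 0 to 1 calls in each direction, and 0 to 3 higher and 0 to 1 lower from 8 tumors.

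With library size only, the deviation of Smc3/Bcl6 tumor 2 was -4.52 for Kmt2d, -3.78 for Kmt2c, -2.80 for Crebbp, -3.43 for Ep300, -0.34 for Ezh2, -3.87 for Arid1a, -2.32 for Smarca4, 0.68 for Hdac3 and -2.64 for Kdm6a. Per kb of coding rather than exon length, levels were 8.49 for Kmt2c, 9.66 for Crebbp, 16.1 for Ep300 and 45.7 for Ezh2. They were 15.9 for Arid1a, 40.6 for Smarca4, 87.6 for Hdac3 and 15.97 for Kdm6a. The order thus depends on the length used, and Crebbp, the lowest per kb of exon, lay above Kmt2c. Kmt2d, with 16869 coding bases, is not in this list. The correlation of Ezh2 with cell cycle genes was 0.618 without the 2 farthest tumors, and 0.618 to 0.947 over the sets of tumors tried. With 3 Bcl6 tumors, small differences are not resolved.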
